A study of Mus musculus with 2 samples.

Results

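Mest and 9 other imprinted genes were followed in mouse adipose tissue under a normal and a high fat diet. The members were the probe sets whose only gene symbol in the platform annotation was Mest, Peg3, Plagl1, H19, Dlk1, Meg3, Cdkn1c, Grb10, Sgce or Ndn. This gave 36 of 45101 probe sets and 9 of the 10 genes. The probe set for H19 carries 2 symbols (H19 and Mir675) and was not used. The genes were chosen with their difference between these arrays already known, so their values are a description and no test is given.

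Each array held RNA pooled from 3 C57BL/6 mice, an inbred strain. Both pools came from adipose tissue taken at 18 weeks of age. One group was fed a normal diet (CE-2) and the other a high fat diet (HFD32) from 6 weeks on, to induce obesity. The sources used here do not give the depot, the sex or any genetic change. With 1 array for each diet there are no replicates, the spread between animals is unknown, and each difference compares 2 pools.

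Imprinted genes are expressed mainly from 1 parental allele, because marks set in the germ line silence the other. Many of them act on growth and on the supply of nutrients. Paternally expressed genes are often growth-promoting and maternally expressed ones often growth-restraining, although there are many exceptions. Several are expressed together in embryonic tissue and fall off after birth, a pattern called the imprinted gene network. In fat, Mest marks the expansion of adipocytes, while Dlk1 and Ndn restrain their differentiation. The arrays do not separate alleles, and the parental class used here is textbook knowledge.

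The promoters of the 3 members with the largest differences are shown because Mest and Peg3 stood higher and Plagl1 lower with the high fat diet. The sequences are the 250 bases before a transcript start, 5′ to 3′, from RefSeq (GRCm38.p6), with matches to the searched motifs in capitals.
Mest, chr6:30737800-30738049, + strand: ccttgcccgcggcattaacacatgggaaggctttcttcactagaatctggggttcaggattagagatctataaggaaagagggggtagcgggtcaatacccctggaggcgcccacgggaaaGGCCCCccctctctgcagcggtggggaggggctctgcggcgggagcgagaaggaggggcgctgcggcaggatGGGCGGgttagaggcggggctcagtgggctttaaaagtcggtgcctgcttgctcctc
Peg3, chr7:6730420-6730669, - strand: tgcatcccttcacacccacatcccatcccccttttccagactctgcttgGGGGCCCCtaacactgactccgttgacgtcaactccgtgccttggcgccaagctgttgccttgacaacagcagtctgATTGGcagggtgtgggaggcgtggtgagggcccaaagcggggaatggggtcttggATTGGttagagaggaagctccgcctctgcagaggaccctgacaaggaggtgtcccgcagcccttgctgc
Plagl1, chr10:13090582-13090831, + strand: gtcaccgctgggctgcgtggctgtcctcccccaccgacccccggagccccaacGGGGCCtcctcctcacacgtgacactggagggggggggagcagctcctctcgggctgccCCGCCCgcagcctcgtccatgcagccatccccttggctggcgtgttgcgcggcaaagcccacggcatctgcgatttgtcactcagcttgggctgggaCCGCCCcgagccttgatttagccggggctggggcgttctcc
The motifs searched on both strands were GGGCGG (the GC box), the CCAAT box, the TATA box spelled as TATAAA and the short motif GGGGCC, where matches to different motifs may overlap. A consensus of the insulator protein CTCF was searched too and is given by name only. It is in 11 of the 32851 windows and in no member window. RefSeq windows were found for 7 members, namely Mest, Peg3, Ndn, Plagl1, Grb10, Dlk1 and Meg3. The Mest window held 1 GC box and 1 GGGGCC, and the Plagl1 window held 2 GC boxes and 1 GGGGCC. The Peg3 window held no GC box but 2 CCAAT boxes and the palindrome GGGGCCCC, which counts as 2 overlapping matches of GGGGCC. A GC box is in 32.7% of all 32851 windows of this length, CCAAT in 33.8%, TATAAA in 12.4% and GGGGCC in 22.0%. Of the 3 windows shown, none held TATAAA. The number of CpG pairs, the sites of DNA methylation, was 14 in the Mest window, 8 in Peg3 and 19 in Plagl1. Over all windows the median was 6 and the quartiles were 2 and 16, so Mest and Peg3 lay between the quartiles and Plagl1 above them. The other Mest windows were 1 that starts 3 bases further on and 1 at an upstream start, which held 7 CpG pairs. These matches describe the letters only, and DNA methylation was not measured on these arrays.

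Mest also hosts a microRNA on its own strand, within the RefSeq bounds of the gene. Both mature arms are shown with the seed (bases 2 to 8) in capitals, since the host transcript had the largest difference of the members.
mmu-miR-335-5p: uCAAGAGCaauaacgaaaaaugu
mmu-miR-335-3p: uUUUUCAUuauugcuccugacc
The arms share no seed, and no value of the mature microRNAs was analysed here.

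Mest encodes an alpha/beta hydrolase-fold protein of the endoplasmic reticulum. Its log2 signal was 10.41 with the normal diet and 12.79 with the high fat diet. The ratio of signals was 5.22, a log2 difference of 2.38, from the only Mest probe set. The gene ranked 46 from the top by this difference among 11778 genes above the floor. The floor is a mean log2 signal of 5.44, the median of all probe sets other than controls. The only error that could be estimated was a log2 SD of 0.27 among probe sets of the same gene, which covers the probes and not animals or RNA.

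Peg3, a paternally expressed zinc finger protein also used as a marker of mesenchymal progenitors, was the only other member that stood higher past 2-fold. Its brightest probe set had 8.97 with the normal diet and 10.04 with the high fat diet, a ratio of 2.10. The next probe set had 7.77 and 9.20, a ratio of 2.70, and the third had 6.87 and 7.98, a ratio of 2.16. All 3 Peg3 probe sets above the floor were thus higher by at least 2-fold on the high fat diet array. The other 2 probe sets lay at 2.31 to 2.68 on both arrays, within background, and give no ratio. Background here means up to the 95th percentile of 83 probe sets of olfactory, vomeronasal and taste receptor genes, 4.92 with the normal diet and 4.95 with the high fat diet.

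Plagl1, a paternally expressed zinc finger transcription factor at the centre of the imprinted gene network, went the other way on every probe set. Its brightest probe set had 12.33 with the normal diet and 11.22 with the high fat diet, 2.16-fold lower. The others had 7.54 against 6.37 and 7.31 against 5.79, which were 2.26-fold and 2.86-fold lower. By the ending of their names, the brightest and the one with 7.54 can match several transcripts, while the dimmest carries no such mark. The 3 differences, -1.11, -1.18 and -1.52, spread over 0.41 on the log2 scale. For comparison, among 2026 genes with 3 or more probe sets above the floor, 33 (1.63%) had all of them past 2-fold in 1 direction. Peg3 and Plagl1 are both among those 33 genes, and since the contrast was used to choose them, nothing is read from this.

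**Figure D1:**
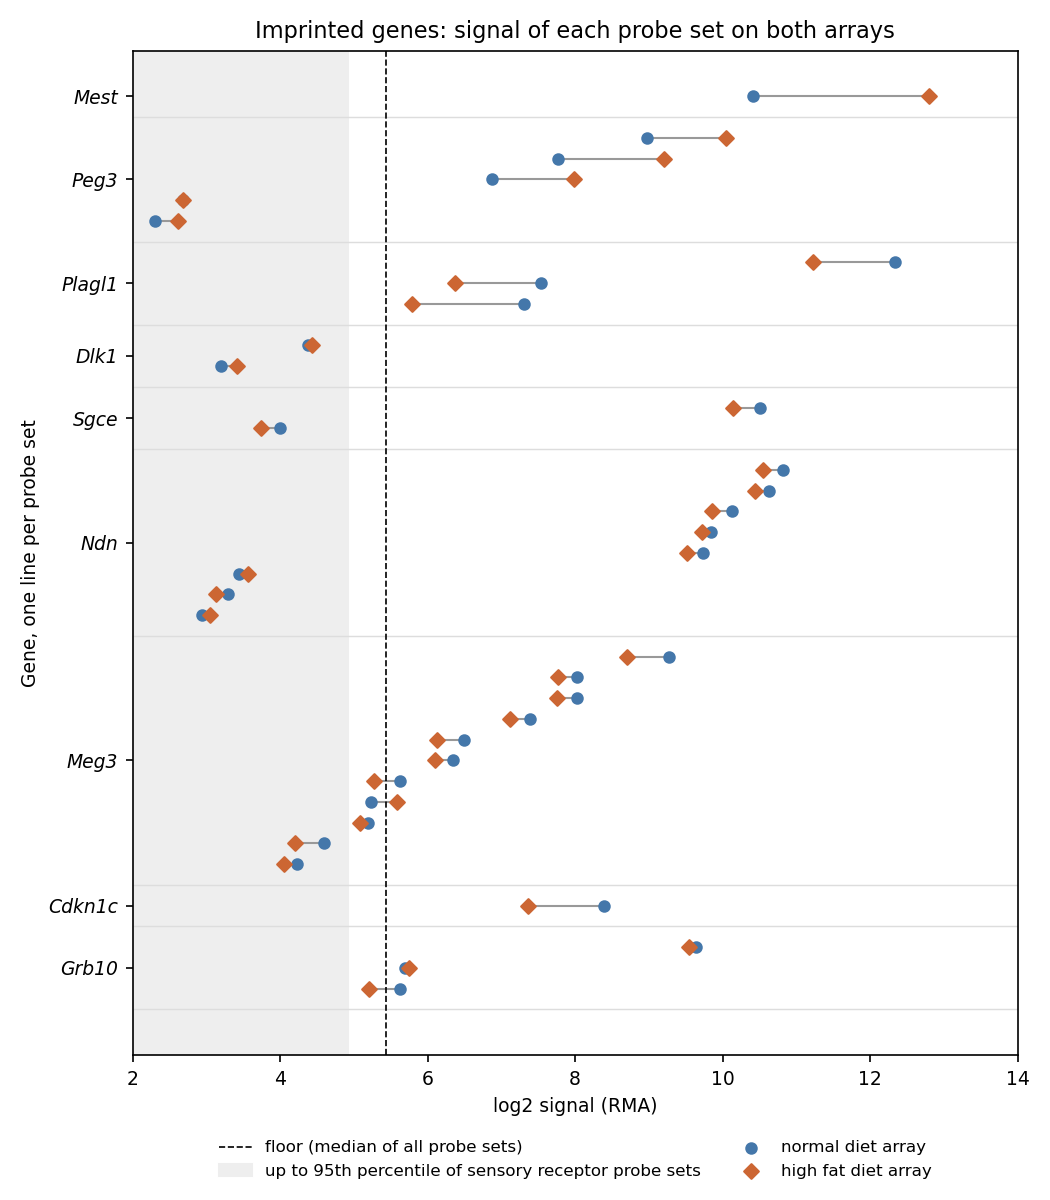
Log2 signal (x axis) of the 36 member probe sets, 1 line for each, on the normal diet array (circles) and the high fat diet array (diamonds), with the floor as a dashed line and background shaded. The high fat diet point lies to the right for Mest and for the 3 bright Peg3 probe sets, and to the left for all 3 Plagl1 probe sets and for Cdkn1c.

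Sgce and Ndn, the remaining paternally expressed members above the floor, were a little lower on the high fat diet array. Sgce, which encodes epsilon-sarcoglycan of the dystrophin-associated complex, had 10.51 and 10.14, a difference of -0.36. Its other probe set was within background on both arrays. Ndn encodes necdin, a MAGE family protein that restrains proliferation and adipocyte differentiation. Its brightest probe set had 10.82 and 10.55, a difference of -0.27. All 5 Ndn probe sets above the floor had a negative difference, from -0.27 to -0.12. Each of these is close to or smaller than the probe set SD of 0.27, but their sign was the same, as it was for 54.4% of genes with 3 or more such probe sets. The other 3 Ndn probe sets were within background.

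Dlk1, the transmembrane protein also known as preadipocyte factor, was not above background on either array. Its probe sets had 4.37 and 4.44, and 3.20 and 3.42, so no ratio is given. A level under background limits the probe set's signal and does not show that the transcript was missing.

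Among the maternally expressed members, Cdkn1c differed most. It encodes a Cip/Kip inhibitor of cyclin-dependent kinases that restrains the cell cycle. Its single probe set had 8.38 with the normal diet and 7.36 with the high fat diet, 2.04-fold lower. The difference was -1.03, and -0.95 after each array was centred on its own median, which is under 2-fold. Meg3, a long noncoding RNA made from the maternal copy of the locus that gives Dlk1 from the paternal copy, was lower by less. Its brightest probe set had 9.28 and 8.70, a difference of -0.58, and can match several transcripts. The brightest Meg3 probe set without that mark had 8.02 and 7.76, a difference of -0.26. All 7 Meg3 probe sets above the floor had a negative difference, from -0.58 to -0.24. Of the 4 dimmer ones 1 had 5.23 and 5.58, a difference of 0.35, and 1 had 5.19 and 5.08, a difference of -0.10. The others were within background on both arrays.

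Grb10 encodes an adaptor that dampens signalling by the insulin and IGF1 receptors. It is expressed from the maternal allele in most tissues and from the paternal allele in neurons. It had 9.63 and 9.54, a difference of -0.09, which is within the probe set SD. The second Grb10 probe set differed by 0.06 and the third, just under the floor, by -0.42. Over the alternative settings the difference of Grb10 ran from -0.11 to 0.06, so no direction is given.

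The 2 parental classes did not part cleanly. Past 2-fold, 2 of the 8 members above the floor were higher (Mest and Peg3) and 2 lower (Plagl1 and Cdkn1c), while 6.57% of all 11778 genes were past 2-fold in either direction. The share higher was 3.28% and the share lower 3.29%, and since the members were chosen on this contrast nothing is read from the comparison. At 1.5-fold the same 4 members passed, and 16.7% of all genes. The paternally expressed members held both the highest and the lowest difference, 2.38 and -1.11, with a median of -0.27 over 5 genes. It turned to 0.44 over 4 genes when probe sets open to several transcripts were dropped. The 3 maternally expressed members had a median of -0.58, which is the value of the brightest Meg3 probe set. It was -0.24 with a gene taken as the median of its probe sets, where Cdkn1c and Meg3 were lower and Grb10 was at 0.06. The paternal median was 0.31 above the maternal one, about the size of the probe set SD. This gap was 1.08 without the probe sets that can match several transcripts, 0.07 with a gene taken as the median of its probe sets, 0.53 without Grb10 and 0.48 with no floor. The median over all 8 members was -0.32, beside 0 for all genes above the floor.

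**Figure D2:**
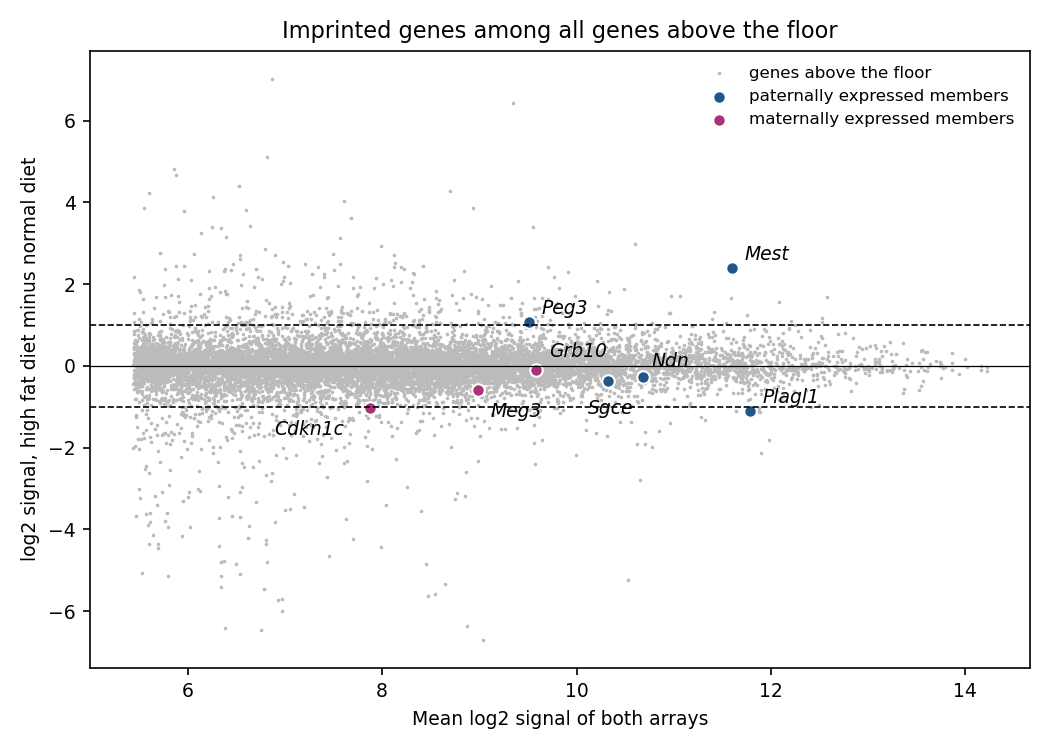
Difference in log2 signal, high fat diet minus normal diet (y axis), against mean log2 signal of both arrays (x axis) for 11778 genes above the floor, with the 8 members coloured by parental class and dashed lines at 2-fold. Mest lies at 2.38, Peg3 just above the upper line, and Plagl1 and Cdkn1c just below the lower line.

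A wider list of 41 imprinted genes put the members in context. Of these, 35 had a probe set with 1 symbol and 20 were above the floor, with a median difference of -0.08. By any amount, 49.9% of all genes above the floor were higher and 49.3% lower. Centring each array on its own median made 59.3% of them higher, so counts of small differences depend on the scaling. Of the other paternally expressed genes 8 were above the floor, 1 was higher and 7 were lower, with a median of -0.67. Of the other maternally expressed genes 12 were above the floor, 6 higher and 6 lower, with a median of 0.05 (8 higher and 4 lower after centring). Mest and Peg3 were the only 2 of 13 paternally expressed genes above the floor at least 2-fold higher, beside 3.28% of all genes. Since 5 of the 13 are members chosen on this contrast, nothing is read from this count.

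Among the other paternally expressed genes, Slc38a4, an amino acid transporter abundant in liver, was lowest. It had 6.82 with the normal diet and 4.30, within background, with the high fat diet, so it was at least 3.66-fold lower. Hepatocyte markers had negative differences in 10 of 10 cases, median -5.86. Their part in the Slc38a4 value was not tested. Nnat, which encodes the small membrane protein neuronatin, had 12.91 and 11.91, 1.99-fold lower, which just misses 2-fold. Kcnq1ot1, the noncoding RNA that silences the domain of Cdkn1c on the paternal allele, had 6.82 and 5.97, a difference of -0.85, and its second probe set above the floor had -1.21. It lies antisense to Kcnq1, and the strand that each probe set reads was not checked. Igf2, the fetal growth factor whose gene is the neighbour of H19, had 6.51 and 6.01, a difference of -0.50. Its other probe set was within background. Impact, a regulator of protein synthesis under amino acid shortage, had the one positive difference, 0.20, with -0.49 on its other probe set above the floor. Mcts2, a retrogene inside H13, had -0.11.

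Among the other maternally expressed genes, Klf14, a transcription factor linked to adipose gene expression, was the single one past 2-fold. It had 6.06 with the normal diet and 7.60 with the high fat diet, 2.91-fold higher. Klf14 lies beside Mest in the same imprinted cluster. Copg2, a coat protein gene that overlaps the end of Mest, had 8.82 on both arrays, a difference of -0.002. Mest and Klf14 thus stood higher in this cluster while the gene that overlaps Mest did not differ by more than the probe set SD. Atp10a, a phospholipid flippase, had 7.41 and 8.33, a difference of 0.93, and its 3 probe sets above the floor gave 0.92 to 0.93. Igf2r, the receptor that clears IGF2, had 8.95 and 9.31, a difference of 0.37. Ppp1r9a, a neighbour of Sgce that encodes neurabin, had -0.44, and Rian, a noncoding RNA downstream of Meg3, had -0.35. Rian rests on 1 of 4 probe sets, and the other 3, below the floor, had positive differences.

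**Figure D3:**
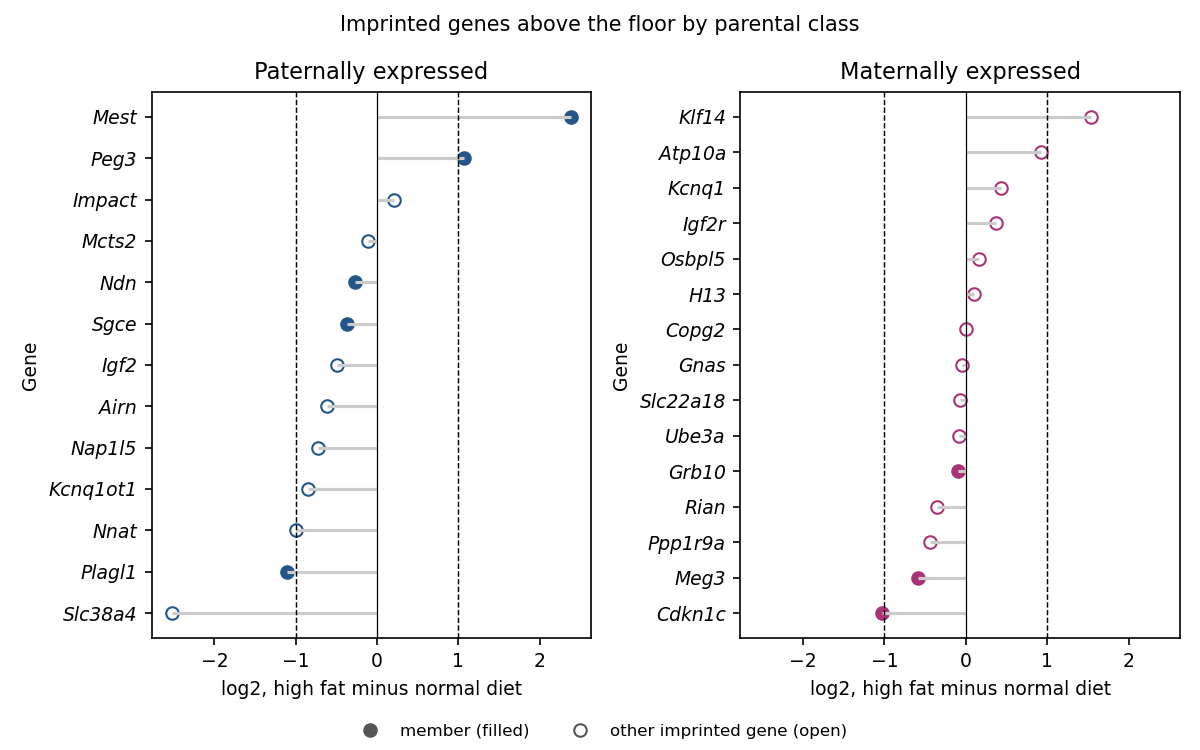
Difference in log2 signal, high fat diet minus normal diet (x axis), for the 13 paternally expressed (left) and 15 maternally expressed (right) imprinted genes above the floor, ordered by difference, with filled points for the members, open points for the other genes and dashed lines at 2-fold. Mest and Peg3 stand at the top of the left panel, which reaches from 2.38 to -2.52, and Klf14 at the top of the right panel, which reaches from 1.54 to -1.03.

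In the other imprinted domains of the members, 9 of the 20 imprinted neighbours with a probe set were above the floor and 11 below it. Of the neighbours outside the list of imprinted genes, 18 of 23 were above it. Over all genes 11778 of 18193 were above it, and nothing is read from these counts. Peg10, which shares a promoter region with Sgce, was at 3.57 on both arrays. Usp29 and Zim1, the neighbours of Peg3, and Magel2, Mkrn3, Peg12 and Snrpn, the neighbours of Ndn, were within background on both arrays, as were Calcr near Sgce and Mirg near Dlk1. Asb4, a further neighbour of Sgce, had 3.67, within background, and 5.30, under the floor. Near Cdkn1c, Kcnq1, a potassium channel, had 0.43, Osbpl5, an oxysterol-binding protein, 0.17 and Slc22a18, a transporter, -0.08, with -0.48 on its other probe set. Phlda2, a growth-restraining gene of the placenta in the same domain, was within background. The neighbours of Cdkn1c above the floor therefore had positive and negative differences. By the brightest probe set none was as low as Cdkn1c with -1.03, and Kcnq1ot1 with -0.85 came nearest. Ube3a, a ubiquitin ligase of the domain of Ndn, had -0.08 on its brightest probe set, and its 4 probe sets above the floor ran from -0.08 to 0.32, so no direction is given.

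Genes of adipose expansion, the setting in which Mest is best known, were partly higher. Of 10 genes above the floor 6 were higher (7 after centring), beside 49.9% of all genes (59.3% after centring). Of the 6, 4 passed 2-fold, as did 3.28% of all genes in that direction. The median was 0.46. The list was drawn up with Lep, Sfrp5 and Fgf13 already known to be high, so nothing is read from these counts. Fgf13, an intracellular fibroblast growth factor homologue, had 9.11 with the normal diet and 12.10 with the high fat diet, 7.91-fold higher, and a log2 difference of 4.11 on its other probe set. Sfrp5, a secreted Wnt inhibitor of adipocytes, had 8.67 and 10.86, 4.56-fold higher. Lep, the satiety hormone, had 11.99 and 13.07, 2.11-fold higher. Mest, at 5.22-fold, lay between Fgf13 and Sfrp5. The 2 lowest in the list were Igf1, a growth factor, with -0.29 (and up to 0.30 on another probe set) and the coactivator Ppargc1b with -0.27. The 5 genes whose pair of log2 signals lay nearest to that of Mest, by straight-line distance over the 2 arrays, were Ccl9, Lbp, Serpinf1, Ctss and Prps1, at distances of 0.52 to 0.90. Their differences, from 1.24 to 1.71, were all smaller than that of Mest.

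Mest has been reported to act on the Wnt coreceptor Lrp6, so Wnt coreceptors and inhibitors were listed. Of 8 above the floor 4 were higher and 4 lower, with a median of 0.003 (5 and 3 after centring), and Sfrp5 was the only 1 past 2-fold. Of all genes above the floor 3.28% were higher past 2-fold. Sfrp4, another secreted Wnt inhibitor, had 0.56. Lrp6 had 0.03 on its brighter probe set and 0.52 on the other. At the low end Sfrp1 had -0.80 (from -1.02 to -0.16 over its 5 probe sets above the floor) and Axin2, a target of Wnt signalling, had -0.75.

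Other genes named as cyclin-dependent kinase inhibitors went both ways. Of 6 above the floor 3 were higher, 2 of those past 2-fold, and 3 were lower. Over all genes above the floor 49.9% were higher, 3.28% past 2-fold, and 49.3% were lower. The list was chosen with earlier results of these data known, so nothing is read from its counts. The median of 0.42 lies between Cdkn3 with 0.91 and Cdkn2d with -0.07. Cdkn3, the third higher gene, is a phosphatase that shares only the name. Cdkn1a, the inhibitor induced by p53, had 8.73 and 10.40, 3.18-fold higher, with 1.69 on its other probe set against 1.67 on this one. Cdkn2b, an inhibitor of the INK4 class, had 7.53 and 8.61, 2.11-fold higher. Cdkn2c of the same class had 12.19 and 11.39, a difference of -0.80, and Cdkn1b of the Cip/Kip class had 7.59 and 6.80, a difference of -0.79. The 2 Cip/Kip relatives of Cdkn1c thus stood on opposite sides of 0. Beside these values, 7 of 7 cell cycle markers above the floor were higher, with a median of 1.42, and their part in the values of the inhibitors was not tested.

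Partners of Grb10 in insulin signalling went both ways. Of 9 above the floor 3 were higher and 6 lower, with a median of -0.21. Over all genes above the floor 49.9% were higher and 49.3% lower. The list was chosen with earlier results of these data known, so nothing is read from its counts. Irs1, the insulin receptor substrate, had 11.03 and 9.90, 2.18-fold lower, and was the only 1 past 2-fold. Of all genes above the floor 3.29% were lower past 2-fold. Gigyf1, a protein that binds Grb10, had -0.69. At the other end Grb14, the closest relative of Grb10, had 0.41 and Irs2 had 0.09.

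The Notch pathway, which Dlk1 is thought to inhibit, was measured above the floor in all 15 listed genes although Dlk1 was not. Of these 3 were higher and 12 lower (6 and 9 after centring), none past 2-fold, with a median of -0.24. Over all genes above the floor 49.9% were higher and 49.3% lower (59.3% higher after centring). The list was chosen with earlier results of these data known, so nothing is read from its counts. The 4 receptors had negative differences, from Notch1 at -0.58 to Notch4 at -0.05, which turned to 0.02 after centring. Among the ligands Dll1 had -0.75 and Dlk2, the relative of Dlk1, had 0.13. Nrarp, a target that feeds back on Notch, had -0.55, while Adam17, the protease that sheds Dlk1, had 0.69. Endothelial markers, many of whose cells express Notch genes, had negative differences in 9 of 9 cases (8 after centring), median -0.58. Their part in the Notch values was not tested.

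Sgce is 1 subunit of a larger complex, and the other subunits went both ways. Of 7 genes of the sarcoglycan and dystroglycan complex above the floor 2 were higher and 5 lower (4 and 3 after centring), with a median of -0.07. Over all genes above the floor 49.9% were higher and 49.3% lower (59.3% higher after centring), and nothing is read from the counts of this list. Sgcd and Sgcb, the delta and beta subunits, had 0.57 and 0.53, against -0.36 for Sgce. Dmd, which encodes dystrophin, had -0.77 and Dtna, dystrobrevin, had -0.42, and its 4 probe sets above the floor ran from -0.999 to 0.06. Skeletal muscle markers, a tissue rich in this complex, had negative differences in 8 of 9 cases, median -1.74, and their part was not tested. Relatives of Plagl1 and Ndn differed little, with a median of -0.11 over 6 genes. Magee1 and Mageh1 were lowest with -0.52 and -0.25, and Maged1 and Maged2 highest with 0.12 and 0.05.

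**Figure D4:**
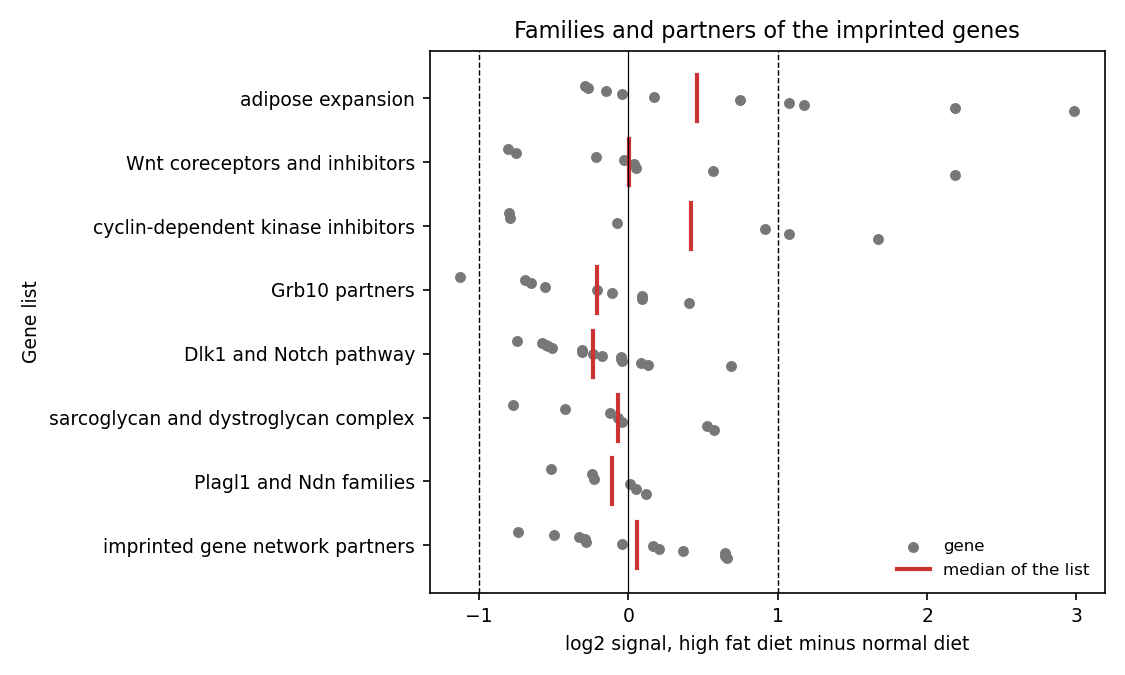
Difference in log2 signal, high fat diet minus normal diet (x axis), for the genes above the floor in 8 lists of relatives and partners of the members, with the median of each list as a red bar and dashed lines at 2-fold. The medians run from -0.24 for the Notch pathway to 0.46 for adipose expansion, and the far points on the right are Fgf13 and Sfrp5.

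The last list held other genes assigned to the imprinted gene network. Of 12 above the floor 6 were higher and 6 lower, with a median of 0.06 (7 and 5 after centring). The matrix genes Col6a1 and Lum had 0.66 and 0.65, while Slc2a4, the insulin-responsive glucose transporter, had -0.74 and Igf2 -0.50. No gene of this list was past 2-fold.

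The cell type markers of the 2 pools bear on every value above, since in whole tissue fewer cells of a type and less RNA per cell cannot be told apart. Adipocyte markers were near the top of the scale on both arrays, with a median signal of 13.45 and 13.43 over 10 genes and a median difference of -0.11. Of these 1 was higher and 9 lower (4 and 6 after centring). Over all 19 of their probe sets above the floor 2 were higher and 17 lower. Of these, 4 dimmer ones were lower past 2-fold (Car3 with -2.26 and -1.86, and 2 of Fabp4, the lower with -1.52) and 1 was higher past 2-fold (Pnpla2 with 1.04). Macrophage markers were higher in 13 of 13 cases (median signal 8.76 and 10.53). Markers of preadipocytes and fibroblasts, cells that express several of the members, had 5 positive and 6 negative differences, median -0.25. Mesothelium markers were lower in 7 of 7 cases (median signal 8.19 and 7.36), and smooth muscle and pericyte markers in 6 of 7 (10.38 and 7.25). Pancreas markers had negative differences in 6 of 7 cases, median -3.00, and epididymis markers higher in 5 of 6 with a median of 4.27. The part of these lists in the values of Mest, Peg3, Plagl1, Cdkn1c and Meg3 was not tested.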

How the data were processed

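Gene expression was measured on 2 Affymetrix arrays, 1 for each diet, each with biotin-labelled cRNA from a pool of 3 animals. The authors deposited log2 signals made with RMA, per the submitters' processing notes. RMA corrects background, equalises the arrays and merges the probes into 1 value. Its version was not stated. The log2 scale was read from the deposited values, which ran from 2.04 to 14.28. Sorted, the columns differ by at most 0.14, so a change in total RNA is not visible. RMA compresses differences at both ends of the scale.

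Genes were named from the platform annotation, using 34945 probe sets with 1 symbol, while 932 had several and 9160 none. The 64 control probe sets were left out. The Entrez ID of 34741 was found in the RefSeq table (GRCm38.p6), which changed no symbol. For each gene the probe set of highest mean was used, and compared if that mean reached the floor of 5.44. The difference is high fat diet minus normal diet. A ratio is a bound, written "at least" before the fold, where the dimmer array was within background. No test was possible with 1 array for each diet, and the number of arrays limits the precision. The SD of 0.27 comes from 5131 genes with several probe sets. Named genes were all members, 7 genes always given, the 2 highest and 2 lowest of each list other than the marker lists, neighbours above the floor that are imprinted or past 2-fold, and the 5 nearest to Mest, while others were chosen after their values were seen. Members and lists were chosen with earlier results of these data known. The steps were tested on simulated data with Python 3.11.15, pandas 2.3.3 and numpy 2.4.6. The simulated shifts were larger than 2-fold and the noise was smaller than the SD of 0.27, so differences near 2-fold were not tested.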

Additional observations from a re-analysis of the deposited data

How the results depend on the processing

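Alternatives were the median over a gene's probe sets, only probe sets without the _x_at, _s_at or _a_at ending (marks of probe sets that can match several transcripts), no floor, a floor at the 75th percentile (7.60), a floor at background, 2 other scalings of the columns, values raised to background, Grb10 left out of the maternal class and 1.5-fold in place of 2-fold. Of 50 values 47 moved by less than the SD of 0.27 between probe sets, or by less than 1.5 times for a count. Without the marked probe sets the median of the paternally expressed members was 0.44 (4 genes) and the gap between the classes 1.08. The gap was 0.53 without Grb10 and 0.48 with no floor, against 0.31. Sgce and Grb10 had no unmarked probe set above the floor. With the median of the probe sets the maternal median was -0.24. Mest stayed between 2.38 and 2.46, Peg3 between 1.05 and 1.14 and Plagl1 between -1.52 and -1.04 over 9 settings. The only Mest probe set is unmarked and above every floor and background, so only the 2 other scalings could move its value. The floor at the 75th percentile, the floor at background and values raised to background changed none of the values. The probe sets used for the members above the floor lie above all these levels. Such fixed values are counted among the 47, so that count does not measure stability. It also holds the gap of 0.07 with the median of the probe sets, against 0.31. Centring each column on its median moved the median of all probe sets from 0.04 to 0.11 and left 3 members past 2-fold, without Cdkn1c. At 1.5-fold 4 members passed. No paired analysis was possible because each diet has 1 array. Dlk1 and other genes within background are limited by signal.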

Other observations

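Several genes that lie near the members but are not in the list of imprinted genes also differed between the arrays, and Cpa1 and Pon1 differed by more than Mest did. Cpa1, the pancreatic carboxypeptidase gene beside Mest, had 8.02 with the normal diet and 4.81, within background, with the high fat diet, at least 8.39-fold lower. Pancreas markers, of which it is 1, had a median of -3.00. Pon1, a paraoxonase made mainly in liver whose gene lies in the region of Sgce, had 8.92 and 5.47, 10.9-fold lower, beside a median of -5.86 for hepatocyte markers. Its neighbours Pon2 and Pon3 had 0.40 and -0.38. Tnnt3, the fast troponin T gene near H19, had 8.83 and 6.86, 3.91-fold lower, beside a median of -1.74 for skeletal muscle markers. Cep41, a cilium gene between Cpa1 and Mest chosen after its value was seen, had 6.56 and 7.48, a difference of 0.92. In the cluster of Mest, then, Mest, Klf14 and Cep41 stood higher, Copg2 had -0.002 and Cpa1 stood lower. The part of other tissues in these values was not tested.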
